A study of Mus musculus with 5 samples.

Results

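The 12M non-tumor tissue of an HKO liver was compared, gene by gene, with the liver of an HKO mouse at 2M, to follow mutant liver tissue from the age of early injury to the age at which tumors were present. Every gene record with over 1 FPKM in either library was taken as a member, which gave 11810 of the 46095 records of the series. FPKM are fragments scaled to the length of the gene and to the total of the library. In HKO mice, on the C57BL/6 strain, floxed Srsf2 alleles (Srsf2f/f) are deleted by Alb-Cre, whose albumin promoter acts in hepatocytes, and the controls, labelled as wild type, are described in the methods as Srsf2f/f mice without Cre. The livers came from a 2M control, a 2M HKO mouse and a 12M control. The non-tumor tissue and a tumor came from a 12M mutant, and both carry the same animal number in their labels, while the sample code of this animal may give a slightly older age than its title. Each condition is 1 library, 5 in all, so no value has a replicate, and age, animal and the presence of a tumor in the same liver cannot be told apart. The mutant mice were survivors, since most HKO mice die young, and Srsf2 protein is described as present again in HKO livers by 2M.

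Srsf2 is a serine and arginine rich splicing factor. When hepatocytes are lost over a long time, the liver is rebuilt by division of the remaining hepatocytes and, in severe injury, from hepatic progenitor cells (HPCs) with biliary features, while macrophages and neutrophils enter and stellate cells lay down collagen. An adult male liver that is at rest secretes plasma proteins, oxidizes and makes lipids, and carries a sex-specific program, driven by pulses of growth hormone through Stat5, of which the major urinary proteins are the best known product.

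Between 34969835 and 36104181 fragments per library were worked back from the deposited values. Srsf2 itself had 14.6 FPKM in the 2M control, 22.7 in the 2M HKO, 15.7 in the 12M control and 17.6 in the 12M non-tumor library. These levels include every cell type of the liver and whatever the deleted allele transcribes, so they do not show the deletion. Markers that define hepatocytes were present in both mutant libraries, with albumin (Alb) at 34154 FPKM in the 2M HKO liver and 35874 FPKM in the 12M non-tumor tissue. All libraries had 0 FPKM of Xist, the RNA of the inactive X chromosome, and a median of 2.78 to 5.27 FPKM over 4 genes of the Y chromosome. Over 9099 genes above 1 FPKM in every library, the median log2 ratio was shifted by -0.10 between the mutant libraries and by -0.04 between the controls, and by 0.25 and 0.19 between mutant and control at 2M and at 12M.

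The log2 ratio was computed on FPKM with 0.1 added, and genes beyond 1 or -1, a 2-fold difference, are those called higher or lower. In the 12M non-tumor tissue 724 members were higher than in the 2M HKO liver (6.13%) and 1535 were lower (13%), and 9551 lay between. Of the members, 10389 exceeded 1 FPKM in both libraries, 405 in the non-tumor tissue alone and 1016 in the 2M HKO liver alone. Where only 1 library exceeded 1 FPKM, the minimum itself fixed the sign of the ratio. This holds for such members of any list below, so the counts of higher and lower genes in a list can rest in part on the minimum. The median log2 ratio over all members was -0.16. As a check on the minimum of 1 FPKM, 191 members had their higher level between 1 and 1.1 FPKM, and 249 genes just outside had it between 0.9 and 1. Each interval beside a ratio is an exact binomial one at 95%, from the fragments. Such intervals cover counting error only and may be too narrow, since 58.8% to 61.0% of the counts from 2 to 21 were even, and whether both reads of a pair were counted is not given in the sources used here. Of the 2259 called members, 2224 had an interval that excluded a ratio of 1.

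The control livers of the same ages differed far less. At 12M, 369 of 10375 genes were higher than at 2M (3.56%) and 288 were lower (2.78%). Of the 724 genes higher in the mutant comparison, 155 were also higher in the control, 30 were lower there, and 449 stayed past a log2 ratio of 1 once the control ratio was subtracted. For the 1535 lower genes these counts were 146, 75 and 1154.

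**Figure D1:**
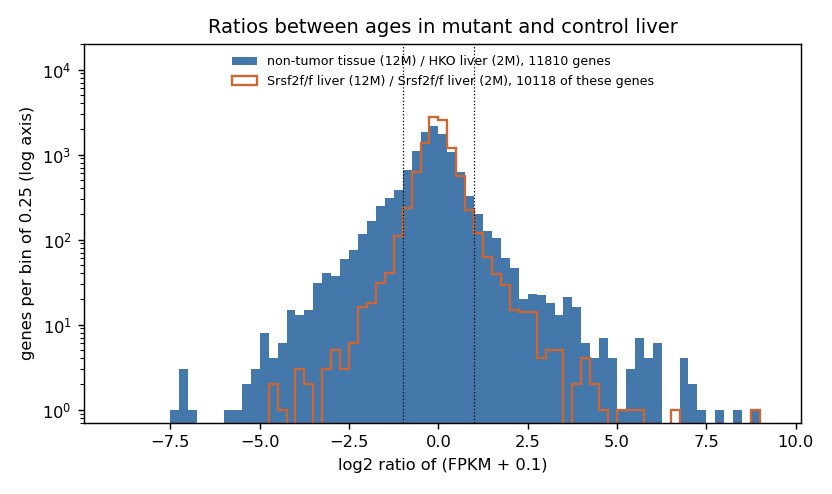
Number of genes (log axis) per bin of the log2 ratio of FPKM with 0.1 added. Filled bars give the 12M non-tumor tissue over the 2M HKO liver for 11810 members, the outline gives the 12M over the 2M control for the 10118 of them above 1 FPKM in a control, and dotted lines mark 1 and -1. More genes lie beyond each dotted line in the mutant comparison.

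The highest single ratios were in male-biased genes of hepatocytes. Of the 21 measured members of that list, 20 were higher in the 12M non-tumor tissue, with a median log2 ratio of 3.62, against 6.13% of all members called higher and a median of -0.16. Between the controls 1 of the 21 was higher and 2 were lower. Members such as Elovl3 and Cyp4a12a were under 1 FPKM in the 2M HKO liver and passed the minimum only through the non-tumor library. The direction of their ratios was thus fixed by the minimum, and the count of 20 rests in part on it. Elovl3, an enzyme that lengthens fatty acids, had 15.7 FPKM in the 2M control, 0.133 in the 2M HKO, 67.7 in the 12M control and 107 in the 12M non-tumor library. That is the highest ratio among members over 5 FPKM, 810.1-fold with an interval from 427 to 1772, and the level in non-tumor tissue lay near that of the 12M control. Cyp4a12a, a fatty acid hydroxylase of male liver, stood at 148 FPKM in the 2M control, 0.412 in the 2M HKO, 170.5 in the 12M control and 171 in the 12M non-tumor library. It was 415-fold higher in the non-tumor tissue, with an interval from 299 to 592, and reads of its close copy Cyp4a12b may be shared. Serpina1e, a protease inhibitor of the plasma from a cluster of similar genes, went from 35.5 FPKM in the 2M HKO liver to 4951 FPKM, beside 7922 and 5799 FPKM in the 2M and 12M controls. Its level at 2M was thus far under both controls, and at 12M it was within a log2 ratio of 1 of the control, as were 14 of the 21 genes.

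Some members of the same list remained far below the control. Hsd3b5, a steroid dehydrogenase found in male liver, had 284 FPKM in the 2M control, 0.207 in the 2M HKO, 183 in the 12M control and 14.1 in the 12M non-tumor library. The organic anion transporter Slco1a1 had 0.0768 FPKM in the 2M HKO liver and 11.6 FPKM in the non-tumor tissue, against 66.7 FPKM in the 12M control. Susd4, a complement regulator, stood at 0.148, 1.69 and 18.4 FPKM in the same order. For these genes the ratio between the mutant libraries was large, at log2 ratios of 5.54, 6.04 and 2.85, and the level at 12M was still lower than in the control by log2 ratios of -3.69, -2.52 and -3.37. They too were under 1 FPKM in the 2M HKO liver, so the minimum fixed the direction of the ratio between the mutant libraries.

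The major urinary proteins, pheromone carriers that male liver secretes, had the lowest list median against the control of the same age in both mutant libraries. All 17 measured members, of 21 in the list, were higher in the 12M non-tumor tissue than in the 2M HKO liver. Their median log2 ratio was 5.61. Some, such as Mup14 and Mup15, passed the minimum only through the non-tumor library, which fixed the direction of their ratios. Yet 15 of the 17 were lower than in the 12M control, with a median of -2.20, where 2.39% of 11037 genes were called lower. Mup7 had 10201 FPKM in the 2M control, 9.89 in the 2M HKO, 6796 in the 12M control and 493 in the 12M non-tumor library. The other two, Mup20 and Mup15, were instead above the 12M control. Mup20, the pheromone darcin, had 293 FPKM in the 2M control, 12.1 in the 2M HKO, 245 in the 12M control and 596 in the 12M non-tumor library, and Mup15 had 2 fragments in the 2M HKO and 1251 in the non-tumor library. These genes are near-identical copies, so the assignment of fragments among them is uncertain.

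Genes that are biased to female liver went the other way, although no library showed Xist. Of 15 measured members 11 were lower in the 12M non-tumor tissue and 1 was higher, with a median log2 ratio of -3.41, against 13% of all members called lower. Cyp2a4, a steroid hydroxylase, had 0.634 FPKM in the 2M control, 248 in the 2M HKO, 2.47 in the 12M control and 1.4 in the 12M non-tumor library. It was 177-fold lower in the non-tumor tissue, with an interval from 143 to 222, and its near-identical copy Cyp2a5 stood at 641 and 699.6 FPKM. Cyp2b9, also a P450 of female liver, fell by 6.90 on the log2 scale, from 1141 fragments to 2, so the size of its ratio rests on very few fragments. It passed the minimum only through the 2M HKO library, which fixed the direction. The sulfotransferase genes Sult2a1 and Sult2a2 were also lower, at 0.999 and 1.68 FPKM in the non-tumor tissue after 8.38 and 51 FPKM in the 2M HKO liver, and both were above the 12M control. The gene that was higher is Cyp4a14, described below. Ntrk2, a neurotrophin receptor, was not lower either, and had 0.0698 FPKM in the 2M control, 3.8 in the 2M HKO, 0.0744 in the 12M control and 5.99 in the 12M non-tumor library.

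Other growth hormone and Stat5 response genes did not follow as a group. In this list 3 of 15 were higher and 2 lower, and the median was 0.17. The growth hormone receptor Ghr had 93.7 FPKM in the 2M control, 18.6 in the 2M HKO, 95.6 in the 12M control and 64.5 in the 12M non-tumor library, and Igfals, the acid-labile carrier of Igf1 in plasma, went from 7.5 to 46 FPKM. Igf1 itself stood at 34.2 and 38.2 FPKM in the mutant libraries and at 69.9 and 59 FPKM in the controls. The epidermal growth factor receptor Egfr, with 31.6 and 35.4 FPKM against 142 and 86 FPKM in the controls, and the cytokine receptor Lifr stayed low in both mutant libraries. The Stat5 target Cish was low in the 12M control too, at 2.47 FPKM after 36.1 FPKM at 2M, so the 12M libraries give no measure of its return.

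Lists of metabolic enzymes differed by smaller ratios and not all in one direction. Of 33 genes of amino acid catabolism 4 were higher and none lower, and of 13 genes of the urea cycle and ammonia handling 2 were higher and 1 lower. One-carbon, methionine and serine metabolism had 1 higher and 3 lower of 21, and glycolysis and gluconeogenesis 4 higher and 6 lower of 29, at a median of -0.29. For fatty acid synthesis 9 of 17 measured genes were higher and the rest lay between, the median log2 ratio being 1.05, and 2 were higher between the controls. Thrsp, a regulator of lipogenesis, had 1476 FPKM in the 2M control, 42.1 in the 2M HKO, 943 in the 12M control and 533 in the 12M non-tumor library. Acacb, an acetyl-CoA carboxylase that restrains fatty acid oxidation, went from 2.75 to 23.8 FPKM and the fatty acid synthase Fasn from 48 to 136 FPKM, against 30.2 and 70.5 FPKM in the 12M control. Fasn thus ended above the control and Acacb slightly below it. The desaturase Scd2, also in the list, was level between the mutant libraries and far above both controls.

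Of 26 genes of fatty acid oxidation and ketogenesis 7 were higher and none was lower, with a median of 0.69, and the median between the controls was 0.34. Among targets of the lipid receptor PPAR-alpha 11 of 21 were higher and 2 lower, and the median was 1.44. These genes were also higher in the 12M than in the 2M control, in 12 of 21 cases. Once the control ratio was subtracted the median turned to -0.84. Cyp4a14, a fatty acid hydroxylase, shows this, with 19.4 FPKM in the 2M control, 18.9 in the 2M HKO, 156 in the 12M control and 51.4 in the 12M non-tumor library.

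Pericentral genes, which hepatocytes around the central vein express under Wnt signals, were higher in 11 of 22 cases and lower in 3, against 6.13% and 13% of all members, with a median of 0.95. Between the controls 6 of the 22 were also higher, with a median of 0.62, and after subtraction of the control ratio the median was 0.65. Cyp2e1, which oxidizes ethanol, had 4225 FPKM in the 2M control, 424 in the 2M HKO, 6579 in the 12M control and 2689 in the 12M non-tumor library. Glutamine synthetase, Glul, went from 106 to 418 FPKM with 373 FPKM in the 12M control, and the Wnt target Axin2 from 0.756 to 2.57 FPKM. The glutathione transferase Gstm3 went against the list, at 932 FPKM in the 2M HKO liver and 314 FPKM in the non-tumor tissue, and the controls were at 115 and 31.1 FPKM. Of 21 periportal genes 4 were higher and 2 lower.

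Cytochromes P450 of families 1 to 3 were split, with 9 of 36 higher and 9 lower, and 11 of the 36 were lower than in the 12M control. Phase II enzymes, which attach sugar, sulfate or glutathione to drugs and hormones, were higher in 12 of 38 cases and lower in 4. Sult2a8, a sulfotransferase of bile acids, had 226 FPKM in the 2M control, 0.944 in the 2M HKO, 237 in the 12M control and 64.8 in the 12M non-tumor library. Carboxylesterases, a family added to the lists after the data were seen, were higher in 7 of 13 cases, led by Ces3a with 1024 FPKM in the 2M control, 12.1 in the 2M HKO, 1058 in the 12M control and 828 in the 12M non-tumor library. Car3, a carbonic anhydrase abundant in adult hepatocytes, went from 14.6 to 1032 FPKM and was still under the 3542 FPKM of the 12M control. Cyp7b1, which hydroxylates oxysterols on the way to bile acids, went from 3.3 to 44.1 FPKM against 123 FPKM.

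Most hepatocyte transcription factors differed little. Of 25 measured, 5 were higher and none lower. Cebpa, a factor of mature hepatocytes, had 162 FPKM in the 2M control, 54.6 in the 2M HKO, 179 in the 12M control and 158 in the 12M non-tumor library. The pioneer factors Foxa1 and Foxa2 were at 1.82 and 7.64 FPKM in the 2M HKO liver and at 5.71 and 17.8 FPKM in the non-tumor tissue. Hnf4a, which maintains hepatocyte identity, was nearly level at 170.2 and 182 FPKM. Onecut1 was low in both, at 2.82 and 1.51 FPKM, against 34.8 and 7.38 FPKM in the 2M and 12M controls.

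**Figure D2:**
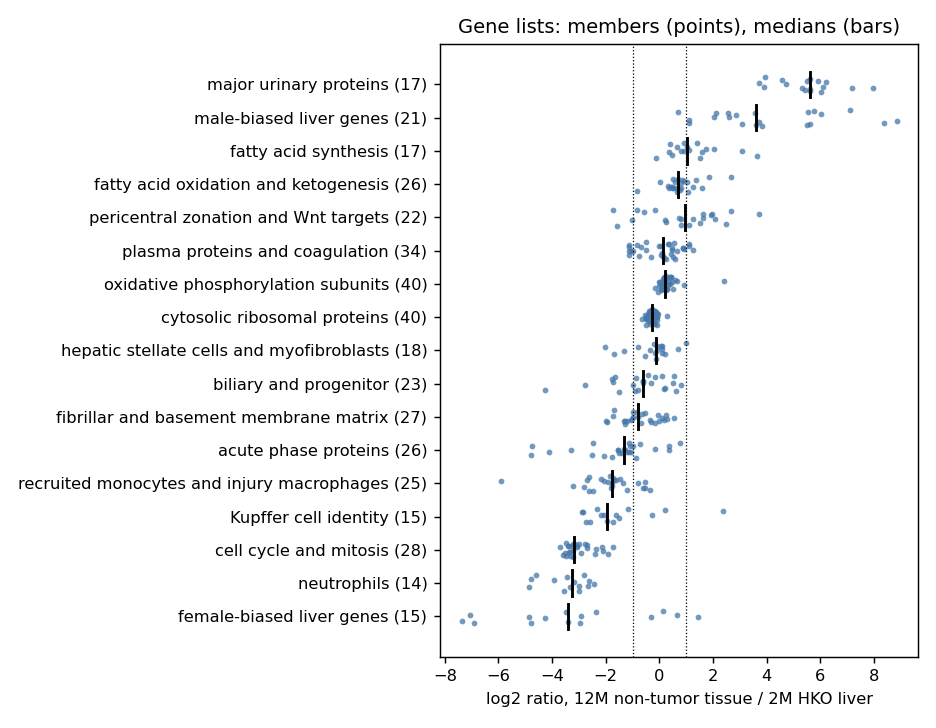
Log2 ratio of the 12M non-tumor tissue to the 2M HKO liver for each measured member (points) of 17 lists, with the list median as a bar and the number of measured members in parentheses. Dotted lines mark 1 and -1. Urinary protein and male-biased genes lie at the right, and neutrophil, mitosis and female-biased genes at the left.

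Genes of cell division were lower in the non-tumor tissue. All 28 measured genes of the cell cycle and mitosis, of 30 in the list, were lower, against 13% of all members. The median log2 ratio of the 28 was -3.17, with a range from -3.69 to -1.74. Some, such as Ccna2 and Nuf2, were under 1 FPKM in the non-tumor tissue and passed the minimum only through the 2M HKO library. For these the minimum fixed the direction, though not the size, of the ratio. The 30 genes of the list summed to only 24.2 FPKM in the non-tumor tissue, so the count of 28 lower genes rests in part on the minimum. Cyclin B2, Ccnb2, had 0.148 FPKM in the 2M control, 14.4 in the 2M HKO, 0.48 in the 12M control and 1.08 in the 12M non-tumor library. Cdk1, the kinase that cyclin B activates, went from 13.6 to 1.39 FPKM, and Ube2c, which marks cyclins for destruction at the end of mitosis, from 32 to 2.74 FPKM. The proliferation marker Mki67 was 13.4-fold lower, with an interval from 11.1 to 16.4. Most of the 28 were not back at the control level, since 21 were still higher than in the 12M control, with a median of 1.67. Of all 11037 genes over 1 FPKM in either 12M library, 10.6% were called higher. Counts within lists have no such minimum in the 12M libraries. The cyclin Ccna2, for example, was at 0.387 FPKM in the non-tumor tissue and 0.0254 FPKM in the 12M control. In bulk tissue, fewer cells of a type and less RNA per cell cannot be told apart, here and for every cell type below.

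DNA replication genes were lower in 21 of 27 cases, with a median of -1.66. Members such as Uhrf1 and the polymerase gene Pole were under 1 FPKM in the non-tumor tissue. They passed the minimum only through the 2M HKO library, so their ratios could only be negative. Gins2, a subunit of the replicative helicase, went from 13.2 to 1.5 FPKM and Uhrf1, which maintains DNA methylation at forks, from 7.01 to 0.619 FPKM. By contrast, the thymidine kinase Tk1 was nearly level in all 4 livers, with 17.1 FPKM in the 2M control, 15.5 in the 2M HKO, 17.1 in the 12M control and 14.4 in the 12M non-tumor library. In this list 6 of 27 genes were above the 12M control.

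The promoters of 3 of these mitosis genes are shown because all measured genes of the list moved together. They are RefSeq sequences of GRCm38.p6 from 250 bases before to 50 bases after a transcription start, and 23 of the 28 genes were matched, with 24 promoters. CCAAT boxes and the cell cycle homology element, TTTGAA or TTCGAA, were searched on both strands and are in capitals.
Ccnb2 (chr9:70421505-70421804, minus strand): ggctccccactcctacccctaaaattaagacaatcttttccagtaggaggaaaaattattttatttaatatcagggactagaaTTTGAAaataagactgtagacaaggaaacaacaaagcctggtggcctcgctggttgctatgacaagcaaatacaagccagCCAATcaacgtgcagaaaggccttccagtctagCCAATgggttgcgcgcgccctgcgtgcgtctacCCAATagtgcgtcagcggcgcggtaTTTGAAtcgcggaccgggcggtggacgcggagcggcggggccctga
Cdk1 (chr10:69352863-69353162, minus strand): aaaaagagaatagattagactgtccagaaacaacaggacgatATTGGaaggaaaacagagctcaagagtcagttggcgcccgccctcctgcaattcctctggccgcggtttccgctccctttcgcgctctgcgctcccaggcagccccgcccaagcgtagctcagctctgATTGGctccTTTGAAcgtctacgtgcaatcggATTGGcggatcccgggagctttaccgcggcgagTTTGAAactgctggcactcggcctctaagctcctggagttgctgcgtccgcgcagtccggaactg
Ube2c (chr2:164769679-164769978, plus strand): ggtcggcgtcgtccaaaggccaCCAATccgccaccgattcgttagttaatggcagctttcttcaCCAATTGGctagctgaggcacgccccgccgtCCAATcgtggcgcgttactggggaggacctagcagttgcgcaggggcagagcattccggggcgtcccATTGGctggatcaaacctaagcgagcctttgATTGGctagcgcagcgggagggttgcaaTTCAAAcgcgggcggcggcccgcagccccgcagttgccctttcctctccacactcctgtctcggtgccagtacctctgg
Each of these promoters holds several CCAAT boxes, some on the opposite strand, where they read ATTGG, and TTTGAA or its reverse TTCAAA. In Ube2c a CCAAT and an ATTGG overlap in CCAATTGG. Of the 24 mitosis promoters 17 held both motifs (70.8%), as did 7.52% of all 32851 promoters and 5.68% of those of members. Of 27 promoters from 22 DNA replication genes, 3 held both (11.1%). The Stat5-type motif TTCNNNGAA was in 3 of 19 promoters of 15 male-biased genes (15.8%), in 5 of 30 promoters of 28 plasma protein genes (16.7%) in 0 of 11 promoters of 11 major urinary protein genes, in 6.87% of those of members and in 8.3% of all promoters. A match describes these letters in a short window and says nothing of the binding of a factor.

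Cell types of injury were lower as well, to different degrees. All 14 measured neutrophil genes, of 16 in the list, were lower, with a median of -3.25. Members such as Camp and Mmp8 were under 1 FPKM in the non-tumor tissue and passed the minimum only through the 2M HKO library. For these the minimum fixed the direction of the ratio. The 16 genes of the list summed to 135 FPKM in the non-tumor tissue, of which Lcn2 alone was 116. The count of 14 lower genes thus rests in part on the minimum. S100a9, a calcium-binding protein that neutrophils carry in quantity, had 0.491 FPKM in the 2M control, 85.4 in the 2M HKO, 2.93 in the 12M control and 8.43 in the 12M non-tumor library. The granule peptide Camp went from 178 fragments to 4, and the collagenase Mmp8 from 256 to 2. Lcn2, an iron scavenger that injured hepatocytes also make, was at 3182 FPKM in the 2M HKO liver, 116 in the non-tumor tissue and 14.9 in the 12M control. Of the 14 genes 9 were above the 12M control.

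Of 25 genes of recruited monocytes and injury macrophages 20 were lower and none higher, with a median of -1.77. Chil3, a lectin of activated macrophages, had 0.0929 FPKM in the 2M control, 38.8 in the 2M HKO, 0.166 in the 12M control and 0.552 in the 12M non-tumor library. Gpnmb, a glycoprotein of lipid-laden macrophages, went from 21 to 2.14 FPKM and the lysozyme Lyz2 from 658 to 185 FPKM. Members that stayed were Cx3cr1, the fractalkine receptor, at 7.01 and 5.44 FPKM beside 0.114 and 0.205 FPKM in the controls, and the integrin Itgax at 2.56 and 1.73 FPKM. Compared with the 12M control, 22 of the 25 genes were higher.

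Genes of Kupffer cells, the resident macrophages of liver, were lower in 12 of 15 cases, with a median of -1.94, but ended within a log2 ratio of 1 of the 12M control in 10. Cd5l, a secreted protein that sustains macrophages, had 69.6 FPKM in the 2M control, 336 in the 2M HKO, 52.3 in the 12M control and 45.8 in the 12M non-tumor library. Clec4f, a lectin that defines these cells, went from 91.5 to 32.5 FPKM, near the 41.3 FPKM of the control. Timd4 and Cd163, receptors of long-lived resident macrophages, ended under it, at 1.17 and 0.895 FPKM against 2.54 and 4.26 FPKM. The scavenger receptor Marco ended above it, at 25.6 against 1.72 FPKM. The gene of the list that was higher, the complement component C6, which hepatocytes also make, had 31.2 and 161 FPKM.

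Genes of lymphocytes and of antigen presentation were mixed. None of 5 measured T and NK cell genes was past a log2 ratio of 1. Of 5 measured B and plasma cell genes 2 were higher. Cd79a, a part of the B cell receptor, had 0.0862 FPKM in the 2M control, 0.376 in the 2M HKO, 1.16 in the 12M control and 3.12 in the 12M non-tumor library. The 12M control was thus above the 2M control as well. Of 5 measured MHC class II genes H2-DMb1 was higher and 2 were lower, the class II chain H2-Aa and the protease Ctss, with a median of -0.48, and all 5 were above the 12M control. The invariant chain Cd74 was level at 182 and 190.1 FPKM, above the 47.5 and 33.3 FPKM of the controls. Of 25 interferon-stimulated genes 5 were lower and none higher.

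Chemokines and their receptors were lower in 14 of 23 cases and higher in 1, the skin chemokine Ccl27a. Ccl6 went from 138 to 12.1 FPKM and Ccl2, which draws monocytes, from 24.1 to 4.95 FPKM. Cx3cl1, the ligand of Cx3cr1, did not follow and had 0.2 FPKM in the 2M control, 2.96 in the 2M HKO, 0.136 in the 12M control and 3.23 in the 12M non-tumor library. Acute phase proteins, which hepatocytes secrete in inflammation, were lower in 19 of 26 cases and higher in none, with a median of -1.31. Orm2, an orosomucoid with close copies, had 45 FPKM in the 2M control, 4347 in the 2M HKO, 47.5 in the 12M control and 159.5 in the 12M non-tumor library. Hemopexin (Hpx) went from 11660.2 to 4748 FPKM and fibrinogen beta (Fgb) from 5899 to 2664 FPKM, with 2802 and 2225 FPKM in the 12M control. The control was also lower at 12M for 4 of the 26, among them serum amyloid Saa2, at 422 FPKM at 2M and 49.1 at 12M, and after subtraction of the control ratio the list median was -0.97.

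Genes of fetal liver and oncofetal genes were lower in 10 of 14 cases, with a median of -1.46. Members such as Igf2 and Igf2bp3 were under 1 FPKM in the non-tumor tissue. They passed the minimum only through the 2M HKO library, so their ratios could only be negative. Compared with the 12M control, 12 of the 14 were still higher, with a median of 1.94. Most genes of the list are low in adult liver, but Ahsg, the plasma protein fetuin-A, is not. It was at 6197 and 4648 FPKM in the controls and went from 11487 to 5203 FPKM. The imprinted noncoding RNA H19 had 4.34 FPKM in the 2M control, 1724 in the 2M HKO, 1.65 in the 12M control and 12.1 in the 12M non-tumor library. Its neighbor Igf2, a fetal growth factor, went from 28 to 0.593 FPKM, and the alpha-fetoprotein Afp from 48.6 to 1.45 FPKM. Igf2bp3, an RNA-binding protein of fetal tissue, was down to 4 fragments from 1012. Igfbp1, which binds Igf1 and Igf2, had 2.62 FPKM in the 2M control, 492 in the 2M HKO, 12.1 in the 12M control and 31.8 in the 12M non-tumor library. H19, Igf2, Afp and Igfbp1 are markers that the study itself picked from these libraries, so that their direction gives no independent evidence. The noncoding RNA Gas5, which the study names with them, was level at 7.57 and 7.77 FPKM. The tumor of the same liver held H19, Igf2, Afp and Igfbp1 at 8234, 534, 53.5 and 478 FPKM. Thus the non-tumor section had a low level of these genes next to a tumor in which they were high. Each was still above the 12M control there, by log2 ratios of 2.79, 1.81, 2.01 and 1.38. Igf2 and Afp were at 0.0982 and 0.286 FPKM in that control.

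Biliary and progenitor genes separated within their list. Of 23 measured, 6 were lower and none higher, with a median of -0.63, and 18 were higher than in the 12M control. The stem cell antigen Prom1 had 0.14 FPKM in the 2M control, 14.4 in the 2M HKO, 0.266 in the 12M control and 0.65 in the 12M non-tumor library. Prom1 and the integrin Itga6, at 0.715 FPKM in the non-tumor tissue, passed the minimum only through the 2M HKO library. Their ratios could thus only be negative. Tnfrsf12a, the receptor of the progenitor mitogen Tweak, went from 150.0 to 21.8 FPKM, and Cd44 from 10.4 to 3.0 FPKM. The biliary keratin genes behaved otherwise, with Krt19 at 0.579 FPKM in the 2M control, 3.13 in the 2M HKO, 0.659 in the 12M control and 4.61 in the 12M non-tumor library. Krt7 was at 3.98 and 5.77 FPKM and the biliary factor Sox9 at 1.19 and 2.18 FPKM, so none of these 3 was lower in the non-tumor tissue. Their ratios, 1.47, 1.45 and 1.83, had intervals that excluded 1 but rest on 156 to 323 fragments. Osteopontin, Spp1, stayed at 248 FPKM after 382 FPKM, against 18.5 and 20.1 FPKM in the controls. Mesothelial genes moved beside the keratins, with Upk3b at 2.1 and 4.1 FPKM and Msln at 1.56 and 2.8 FPKM. The summed level of 7 mesothelial markers, Krt19 among them, was 1.25 and 1.57 FPKM in the controls, 8.67 in the 2M HKO and 14.3 FPKM in the non-tumor tissue, and their part in the keratin levels was not tested.

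Matrix genes were lower in 10 of 27 cases and higher in none, with a median of -0.81, yet 22 of the 27 were above the 12M control, with a median of 2.02. Collagen I, Col1a1, had 0.694 FPKM in the 2M control, 21.1 in the 2M HKO, 0.322 in the 12M control and 11.7 in the 12M non-tumor library. Col3a1 went from 47.6 to 20.6 FPKM and the basement membrane linker Nid1 from 46.4 to 11.6 FPKM. Markers of hepatic stellate cells were mostly level between the mutant libraries, with 3 of 18 lower and none higher. Against the 12M control 9 of the 18 were higher and 1 was lower, with a median of 1.03. The receptor Pdgfrb had 1.04 FPKM in the 2M control, 9.13 in the 2M HKO, 1.97 in the 12M control and 9.86 in the 12M non-tumor library, and Cygb, a globin of quiescent stellate cells, was at 27.7 and 25.1 FPKM. Acta2, the actin of contractile myofibroblasts, was lower, from 10.4 to 3.15 FPKM, as was the growth factor Hgf, from 6.57 to 1.55 FPKM.

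**Figure D3:**
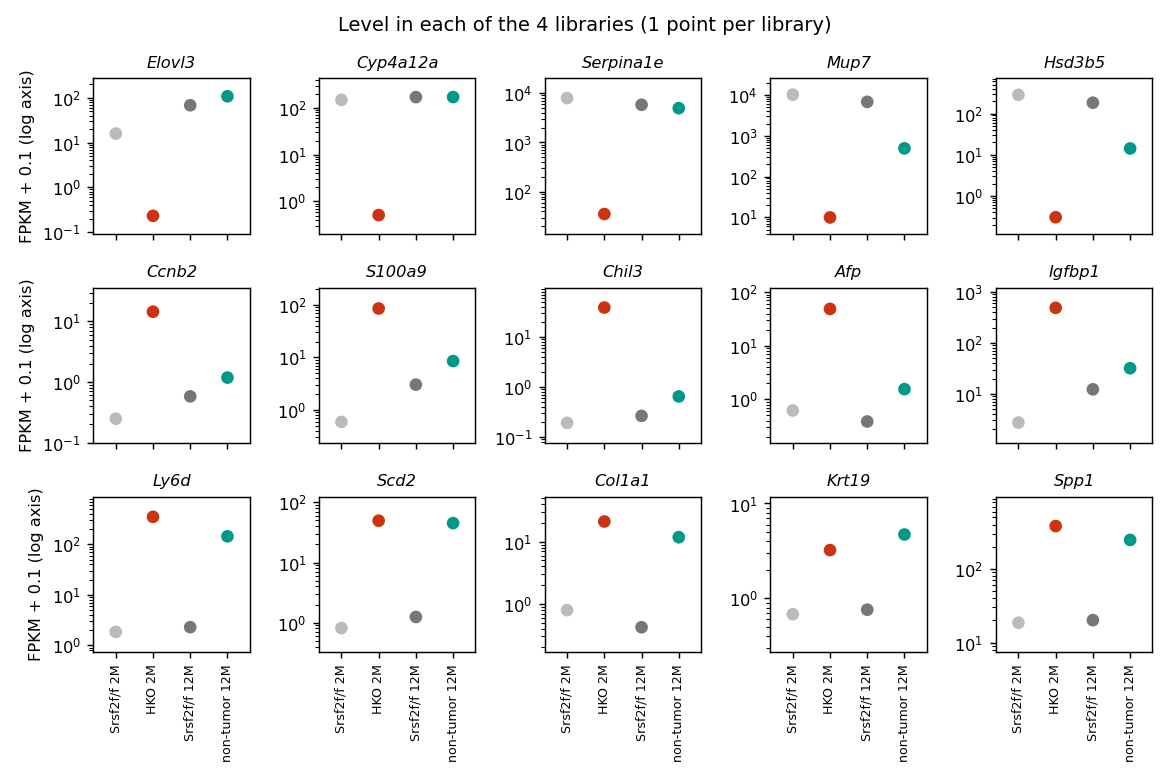
FPKM with 0.1 added (log axis) of 15 genes in the controls and the mutant libraries, 1 point per library. In the top row the 2M HKO liver is lowest, in the middle row it is highest and the non-tumor tissue lies far below it, and in the bottom row both mutant libraries lie above both controls.

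Which differences from the control were present early and late was read from the mutant libraries, each against the control of its own age, since these comparisons share no library. At 2M, 3041 of 11777 genes were higher (25.8%) and 742 lower (6.3%) in the HKO liver than in the control. At 12M, 1172 of 11037 were higher (10.6%) and 264 lower (2.39%) in the non-tumor tissue. The genes higher at both ages numbered 945, which is 31.1% of the early and 80.6% of the late ones, and in 778 of them the early ratio was the larger. The genes lower at both ages numbered 137, or 18.5% of the early and 51.9% of the late ones.

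The genes highest at both ages included Shc2, an adaptor of receptor kinases, with 0.0289 FPKM in the 2M control, 13.1 in the 2M HKO, 0.00718 in the 12M control and 12.1 in the 12M non-tumor library. Ly6d, a surface protein that embryonic and injured epithelia express, stood at 1.74 FPKM in the 2M control, 351 in the 2M HKO, 2.18 in the 12M control and 144 in the 12M non-tumor library. Scd2, the fatty acid desaturase of fetal and nervous tissue, was at 49.5 and 45 FPKM in the mutant libraries beside 0.713 and 1.14 FPKM in the controls. Between the mutant libraries Shc2 and Scd2 were level, at log2 ratios of -0.12 and -0.13, and Ly6d was lower, at -1.28. Also in this group were the estrogen sulfotransferase Sult1e1, at 26.1 and 7.44 FPKM, Gldn, Gipc2, Casp12 and Col1a1. The cell cycle inhibitor Cdkn1a, a target of p53, remained at 8.13 FPKM after 15.9 FPKM, with 0.898 and 0.234 FPKM in the controls, and Myc was level at 14.6 and 14 FPKM with 0.807 FPKM in the 12M control. Among the genes lowest at both ages were Mup12, Mup1, Mup7, Mup3, Hsd3b5, Susd4, the sulfotransferase Sult5a1 and the pseudogene Adh6-ps1.

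A smaller set differed from the control only late. Of 12067 genes over 1 FPKM in any of the control and these mutant libraries, 155 were higher and 96 lower in the non-tumor tissue while within a log2 ratio of 1 in the 2M HKO liver. These were 13.2% of the genes higher late and 36.4% of the genes lower late. The prostaglandin synthase Ptgds had 2.3 FPKM in the 2M control, 1.64 in the 2M HKO, 0.859 in the 12M control and 12.7 in the 12M non-tumor library. Smyd1, a histone methyltransferase known from muscle, had 1.13 FPKM in the 2M control, 1.04 in the 2M HKO, 2.32 in the 12M control and 13 in the 12M non-tumor library, and the actin-severing protein Gsn went from 16 to 44.2 FPKM with 8.49 FPKM in the 12M control. Others were Gadd45g, Noct, Blnk, Slc39a4 and Cav1. For Gadd45g the gap lay in the control, which was at 16.6 FPKM at 2M and 1.95 at 12M, while the mutant libraries were at 24.9 and 20.9 FPKM. The lowest late were the thioesterase Acot3, with 3.25 FPKM in the 2M control, 2.17 in the 2M HKO, 18.7 in the 12M control and 1.71 in the 12M non-tumor library, ND6, Cyp26b1, Angptl6, Cyp2c68, Pdf, Cyp4a14 and the prolactin receptor Prlr. Of all 81 lists, the median against the control was nearer to 0 late than early in 68 and farther in 13. Among those 13 were T and NK cells, at 0.96 and 1.53, B and plasma cells, at 1.33 and 1.35, mesothelium, at 2.61 and 2.74, and PPAR-alpha targets, at 0.05 and -0.29.

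**Figure D4:**
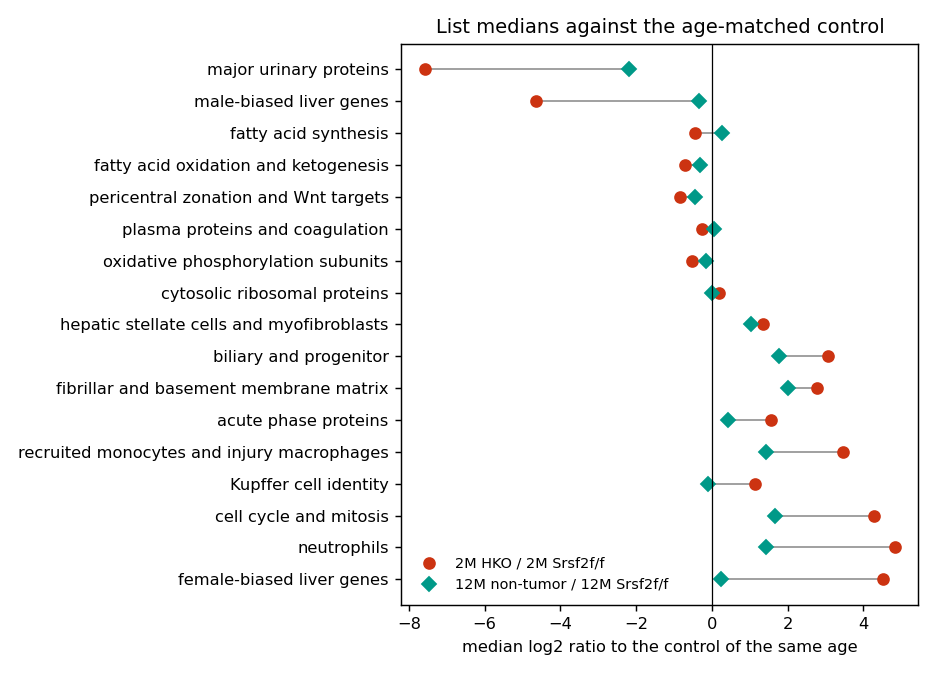
Median log2 ratio to the control of the same age for 17 lists, with the 2M HKO liver as circles and the 12M non-tumor tissue as diamonds. In the 17 lists drawn the late median lies nearer to 0 than the early one, which holds for 68 of all 81 lists. The medians of neutrophil, recruited macrophage, mitosis, matrix and biliary genes stay above 1, as does that of stellate cell genes, at 1.03.

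Genes that every cell uses differed little. Of 40 cytosolic ribosomal protein genes and 27 proteasome genes none was past a log2 ratio of 1, with medians of -0.27 and -0.02. Of 40 genes of oxidative phosphorylation 1 was higher, Uqcrc1, which also differed between the controls, at 11.1 and 2.01 FPKM. Plasma proteins and coagulation factors were higher in 3 of 34 cases and lower in 5, with a median of 0.15, and all 34 were within a log2 ratio of 1 of the 12M control. Transferrin, Trf, which carries iron, had 5897 FPKM in the 2M control, 19535 in the 2M HKO, 5842 in the 12M control and 8849 in the 12M non-tumor library, and the apolipoprotein Apoa2 went from 1974 to 4709.6 FPKM. The other lower genes were Ahsg and the fibrinogen chains Fga, Fgb and Fgg, and the other higher ones were Ttr and C8b. Of 11 SR protein genes, the family of Srsf2, 1 was lower, Tra2b, from 14.8 to 7.16 FPKM.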

How the data were processed

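RNA-seq was made from 5 livers or liver sections of C57BL/6 mice, 1 library per condition. The authors deposited 1 table of FPKM per gene. The submitters' processing notes name Bowtie 0.12.2 and GRCm38, and the counting tool and annotation are not given in the sources used here. Fragments were worked back from the smallest steps of each gene's values, and 98.5% to 98.8% of values came out whole within 0.01. The log2 ratio was taken on FPKM with 0.1 added, and intervals are 95% exact binomial intervals on fragments at the depths given in the report. For ratios, 3 fragments stood in for a count of 0 as a floor. No test between conditions was possible with 1 library each, and EBSeq, which the study used, was not repeated. The procedure was tested on simulated data.

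The members and gene lists were chosen with earlier results of these data known, and 7 families were added after the data were seen. Named genes were the 12 highest and 12 lowest ratios over 5 FPKM, predicted genes aside, in each list the 4 members at most with the largest ratio in size and the defining members that did not pass, the 10 most abundant genes of each mutant library, the 8 highest and 8 lowest late-only and both-age genes, the genes the study names, and Srsf2. Other list members were named for their role after their values were seen. Lists that the study named come from these libraries. Some genes that the rule names are withheld and not reported here. The tumor library was used only for levels. Promoters came from RefSeq, GRCm38.p6, and were matched by symbol for 8664 members. Alternatives were another pseudocount, minimum, threshold, scaling, gene set and subtraction of the control ratio. Python 3.11.15 was used, with scipy 1.17.1 for the intervals, pandas 2.3.3 and numpy 2.4.6 for the tables and matplotlib 3.10.9 for the plots.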

Additional observations from a re-analysis of the deposited data

Results flagged for a closer look

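Cyp2a4 and Cyp2b9, P450 genes biased to female liver, moved in opposite directions with age in the mutant and in the control. Cyp2a4 had a log2 ratio of -7.37 between the mutant libraries and 1.81 between the controls, and Cyp2b9 had -6.90 and 1.68. Each difference is between single libraries and was not tested. In the controls both genes were low, Cyp2a4 at 0.634 and 2.47 FPKM and Cyp2b9 at 0.0545 and 0.394 FPKM.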

How the results depend on the processing

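No paired analysis was possible because each condition is 1 library, and for the same reason no replicate could be left out. With a pseudocount of 1 FPKM, 932 members were lower in the 12M non-tumor tissue, 199 and 148 genes were higher and lower between the controls, 498 were higher at both ages, and 631 and 160 were higher and lower in the non-tumor tissue than in the 12M control. With a minimum of 5 FPKM, 448 members were higher and 702 lower, 146 and 128 genes were higher and lower between the controls, 1386 were higher at 2M, 398 and 112 were higher and lower at 12M, and 314 and 71 were higher and lower at both ages. With no minimum the counts were 1401 higher and 2680 lower, and past a log2 ratio of 2 they were 231 and 433. Subtraction of the control ratio changed the sign of 9 of 81 list medians. In 6 of these neither value was past 1, and the others were PPAR-alpha targets, at -0.84, immunoglobulin variable segments, at -1.26, and pancreas, with 2 measured genes, at 1.05. Of the called members 32.0% were higher. This share was 38.1% with median-ratio scaling, 30.9% with TPM and 28.8% after subtraction of the control ratio. It was 28.5% when libraries were rescaled to the fragments outside the 20 genes with most fragments in any library, which stayed in the counts. Another pseudocount or minimum cannot change the direction of a ratio, so those settings were no check on it. Under median-ratio scaling or TPM no named gene with either value past 1 changed direction. Subtraction of the control ratio, applied to the named genes after the data were seen, changed the sign of 25 of 316, 11 of them among the 245 past 1. The log2 ratios that turned with either value past 1 became -0.22 for Acot1, -0.37 for Apoa4, -0.60 for Bbc3, -5.14 for Cidea, -1.67 for Cidec, -1.46 for Cyp26b1, -1.56 for Cyp4a14, -0.83 for Derl3, -0.23 for Fgf21, 2.77 for Gadd45g, 0.31 for Gstm3, 0.14 for H2-Aa, -1.63 for Jchain and -0.090 for Oat. The cause of these shifts was not tested. Low genes carry the widest intervals, and near-identical copies cannot be separated at any depth.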

Other observations

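Metallothioneins, which bind zinc and copper, were lower in the non-tumor tissue, with Mt1 at 43.2 FPKM in the 2M control, 638 in the 2M HKO, 9.1 in the 12M control and 54.9 in the 12M non-tumor library. Mt2 went from 655 to 43.8 FPKM in the mutant libraries and from 30.4 to 4.66 FPKM in the controls, so both pairs were lower at 12M and the mutant was above the control at each age. Of 16 circadian clock genes 2 were higher and 1 was lower, with Arntl at 0.386 and 1.56 FPKM and Nr1d1 at 14.3 and 46.4 FPKM, and the hour at which the livers were taken is not given in the sources used here. Of 34 immunoglobulin variable segments 15 were higher and 9 lower, and 20 were higher between the controls. Igkv8-21 alone had 319 fragments in the 2M HKO library and 1 in the non-tumor library.

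Some genes of fat storage were higher at 12M than at 2M in both pairs. Cfd, an adipose serine protease, had 0 fragments in the 2M HKO library and was at least 126-fold higher in the non-tumor tissue, taking 3 fragments as the floor, and it went from 0.185 to 30.5 FPKM in the controls. Cidec, a lipid droplet protein, had 0.882 FPKM in the 2M control, 2.7 in the 2M HKO, 46 in the 12M control and 41.2 in the 12M non-tumor library. Fitm1, which helps to form lipid droplets, had 20.3 FPKM in the 2M control, 0.456 in the 2M HKO, 101 in the 12M control and 70.2 in the 12M non-tumor library. The asparagine synthetase Asns, a target of the amino acid stress response, was lower, with 2.49 FPKM in the 2M control, 5.94 in the 2M HKO, 9.07 in the 12M control and 0.467 in the 12M non-tumor library. Nqo1, a quinone reductase under Nrf2, went from 61.9 to 6.92 FPKM, near the 5.5 FPKM of the 12M control.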
